A study of Mus musculus with 14 samples.

Results

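The mouse mitochondrial chromosome carries 37 genes, and these are the genes described here in 4T1 tumours from mice given cyclophosphamide (CTX) or buffer. They were taken as every row that the deposited count table places on chromosome MT, which gave 37 of 54532 genes: 13 mRNA genes, 2 rRNA genes and 22 tRNA genes. No expression value entered that choice. 4T1 is an established mouse line of triple-negative mammary carcinoma, and CTX is an alkylating chemotherapy drug that is activated in the liver. For the tumours, 1000000 cells were placed under the skin at the mammary gland, and injections into the abdominal cavity began 9 days later, at a tumour volume near 100 mm³. The PBS group (n = 4 libraries) received phosphate-buffered saline, the CTX100 group (n = 5) received CTX at 100 mg/kg, and the CTX140 group (n = 5) received CTX at 140 mg/kg, each as 1 injection every 6 days for 3 cycles. All groups carried the same graft, and tumours were taken 3 days after the third cycle for bulk RNA sequencing, so each library mixes carcinoma, stromal and immune cells. The question, per the series title, was what CTX does to the cells and signals around such tumours. The strain, age and sex of the mice were not given in the sources used here.

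Mitochondria keep a small circular genome that is copied and transcribed apart from the nucleus. Each strand is transcribed as a long precursor, and the tRNAs that lie between the mRNA and rRNA genes mark the places where nuclear-encoded endonucleases cut that precursor into single RNAs. The mRNAs encode core subunits of respiratory complexes I, III and IV and of the ATP synthase, the rRNAs build the mitochondrial ribosome, and the tRNAs serve its translation. In the annotation, 28 of the 37 genes lie on the plus strand. The other 9 lie on the minus strand: mt-Nd6, a complex I subunit, and 8 tRNA genes.

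The sequences below are those on which the results turn. All are from the GENCODE M21 annotation of GRCm38 (mm10), in which the coordinates of all 37 genes equal those of the count table, and all are written 5′ to 3′ as DNA on the strand of the gene. The first set shows the 5 minus-strand tRNA genes that passed the filter on low counts, with the anticodon in capitals: mt-Tp (proline tRNA, chrMT:15356-15422), mt-Tc (cysteine, chrMT:5192-5257), mt-Tn (asparagine, chrMT:5089-5159), mt-Te (glutamate, chrMT:14071-14139) and mt-Ty (tyrosine, chrMT:5260-5326). The plus-strand mt-Tl1 (leucine, chrMT:2676-2750), which lies between mt-Rnr2 and mt-Nd1, is shown for comparison.
mt-Tp: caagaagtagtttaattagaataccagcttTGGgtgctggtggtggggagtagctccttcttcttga
mt-Tc: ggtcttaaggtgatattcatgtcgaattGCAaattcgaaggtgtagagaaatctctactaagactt
mt-Tn: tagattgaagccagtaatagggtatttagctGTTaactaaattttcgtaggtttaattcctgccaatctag
mt-Te: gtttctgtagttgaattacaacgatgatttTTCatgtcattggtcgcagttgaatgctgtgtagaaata
mt-Ty: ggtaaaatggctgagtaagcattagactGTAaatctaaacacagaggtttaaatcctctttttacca
mt-Tl1: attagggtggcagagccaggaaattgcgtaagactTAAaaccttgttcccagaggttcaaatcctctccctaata

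The next pair shows where mt-Nd5 on the plus strand (last 30 bases, chrMT:13536-13565) and mt-Nd6 on the minus strand (last 30 bases, chrMT:13552-13581) run into each other. The 14 bases in capitals are shared, and are reverse complements of each other. The strand setting of the read counting is unstated in the labels. If the counting ignored strand, reads that cross these bases, or that come from the precursor of the opposite strand, cannot be told apart.
mt-Nd5 3′ end: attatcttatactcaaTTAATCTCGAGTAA
mt-Nd6 3′ end: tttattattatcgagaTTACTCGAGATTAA

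The last set shows that part of the chromosome has a near-identical nuclear copy. The first 61 bases of mt-Nd3 (chrMT:9459-9519) and of the nuclear pseudogene Gm28438 (chr1:24613059-24613119, minus strand) differ by the substitution T3C, counted from the first base of mt-Nd3 and set in capitals. The first 61 bases of mt-Atp6 (chrMT:7927-7987) and of Gm10925 (chr1:24614591-24614651, minus strand) are the same.
mt-Nd3: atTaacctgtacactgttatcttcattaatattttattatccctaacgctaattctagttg
Gm28438: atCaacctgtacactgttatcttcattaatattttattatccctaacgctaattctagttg
mt-Atp6: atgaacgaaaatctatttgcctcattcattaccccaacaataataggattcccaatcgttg
Gm10925: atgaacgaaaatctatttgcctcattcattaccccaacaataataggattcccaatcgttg

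The 14 libraries held 14423875 to 19282726 counts each. The carcinoma keratins Krt8 and Krt18 were present in every library, at 692 to 1201 and 456 to 995 CPM (counts per 1000000 counts of the library, scaled by TMM factors here and below). All 9 epithelial markers were in the table, and their sum spanned 1475 to 2301 CPM in the PBS group, 1788 to 2173 with the lower dose and 1279.98 to 1989 with the higher. That sum is mostly Krt8 and Krt18. Of the 9 epithelial markers, 4 were higher in CTX140 than in PBS at an edgeR adjusted p under 0.05, where 11.1% of all genes tested were higher. Epcam had 0.546 to 2.77 CPM in PBS and 7.55 to 61.9 in CTX140, and Krt19 had 1.54 to 6.03 and 13.8 to 125, both without overlap and highest in CTX140 1. Other cell types varied too: the sum of 8 fibroblast markers lay between 759 and 1289.8 CPM in PBS, between 1324 and 2289.5 in CTX100 and between 2343 and 6631 in CTX140, and 8 macrophage markers reached 12232 CPM in CTX140 2 against 1352 to 5820.3 in the other libraries. The 8 T cell markers summed to 675 CPM in CTX140 1 against 42.8 to 213 in the other 13 libraries, and 6 endothelial markers to 232 CPM in CTX140 1 against 33.9 to 152 in the others. Of tissues rich in mitochondria, 10 skeletal muscle markers summed to 262 CPM in CTX100 3 and to 9.70 to 37.5 in the other 13 libraries. The 8 white adipocyte markers summed to 0.439 to 10.7 CPM in the PBS group, 16.6 to 95.6 with the lower dose and 44.5 to 344 with the higher, highest in CTX140 1, and 5 brown adipocyte markers stayed between 1.10 and 5.58. The 5 red blood cell markers summed to 70.3 to 176 CPM in PBS and 3.50 to 38.1 in CTX100, without overlap. In CTX140 they summed to 6.30 to 296, highest in CTX140 5. Of these 5 markers, 0 were higher or lower between groups at an edgeR adjusted p under 0.05. No marker of these lists was at 0 in all libraries. The part of these cell types in the mitochondrial values was not tested.

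Mitochondrial genes took a few percent of all counts, and that share did not separate the groups. It was 3.46%, 5.87%, 4.46% and 5.10% in PBS libraries 1 to 4. In CTX100 1 to 5 it was 4.37%, 3.09%, 3.34%, 6.87% and 4.98%, and in CTX140 1 to 5 it was 9.81%, 4.69%, 5.84%, 4.14% and 5.62%. CTX140 1 was the highest library of the series, while the other CTX140 libraries lay within the range of the other groups. The means were 4.72% ± 1.02 (SD, n = 4), 4.53% ± 1.52 (SD, n = 5) and 6.02% ± 2.23 (SD, n = 5). The difference was -0.19 percentage points for CTX100 minus PBS, against a pooled SD of 1.33, and its sign changed when PBS 2, CTX100 2 or CTX100 3 was left out. It was 1.30 points for CTX140 minus PBS and 1.49 points for CTX140 minus CTX100, against pooled SDs of 1.81 and 1.91. Without CTX140 1 these became 0.352 and 0.543 points. Fewer cells of a type and less RNA per cell cannot be told apart in such bulk libraries.

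**Figure D1:**
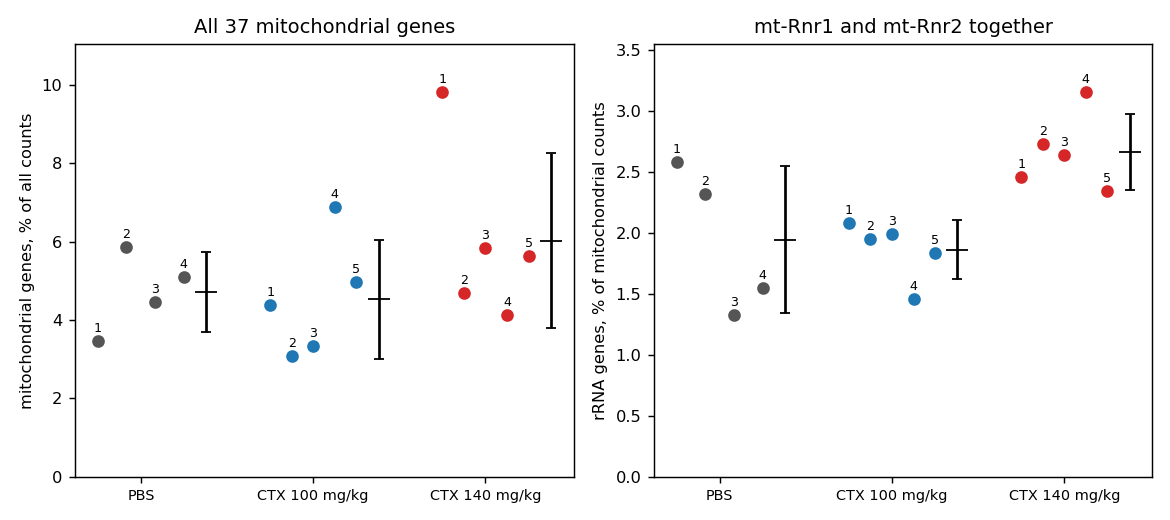
Left: counts of the 37 mitochondrial genes as a percentage of all counts, by group. Right: counts of the rRNA genes mt-Rnr1 and mt-Rnr2 as a percentage of mitochondrial counts. Each point is a library with its replicate number, and the bars give the mean ± SD. On the left the groups overlap and CTX140 1 stands highest, at 9.81%. On the right the CTX140 libraries, at 2.35% to 3.15%, all lie above the CTX100 libraries, at 1.46% to 2.08%.

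Nearly all of these counts were mRNA. The 13 mRNA genes held 96.7% to 98.6% of mitochondrial counts, and the tRNA genes held 0.0649% to 0.213%. The 2 rRNA genes held 2.58%, 2.32%, 1.33% and 1.55% in PBS 1 to 4, then 2.08%, 1.95%, 1.99%, 1.46% and 1.83% in CTX100 1 to 5, and 2.46%, 2.73%, 2.64%, 3.15% and 2.35% in CTX140 1 to 5. The CTX140 libraries all lay above the CTX100 libraries, and PBS 1 reached into the CTX140 range. The labels do not state how RNA was selected for the libraries. The noncoding RNA gene Rn7sk had 0.724 to 2.94 CPM, and small nucleolar RNA genes took 0.00254% to 0.00505% of all counts. The part of RNA selection in the levels and calls of mitochondrial genes was not tested.

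Levels between genes were compared as CPM per kb of gene, averaged over all 14 libraries. They are levels in the libraries, after an RNA selection that is not stated. mt-Co1, the catalytic subunit of complex IV, stood highest at 14273 ± 4984 CPM per kb (SD, n = 14), followed by mt-Cytb, the mitochondrial subunit of complex III, at 10632 ± 3885. The complex I genes mt-Nd1 (4213 ± 1512), mt-Nd2 (3909.6 ± 1434) and mt-Nd4 (3186 ± 1176) came next and differed by less than their SDs. mt-Nd5 (1239 ± 682) and mt-Nd6 (896 ± 595), which overlap end to end, also differed by less than their SDs. The ATP synthase gene mt-Atp6 followed at 585 ± 239.5 CPM per kb. The rRNA genes mt-Rnr1 (458 ± 197) and mt-Rnr2 (430.3 ± 192), of the small and the large ribosomal subunit, came next and differed from mt-Atp6 by less than their SDs. In CTX140 alone mt-Rnr1 had 627 ± 223, mt-Rnr2 621 ± 159 and mt-Atp6 619 ± 241 CPM per kb (SD, n = 5), which also differed by less than their SDs. The complex IV genes mt-Co2 (309 ± 122) and mt-Co3 (253 ± 91.9) were lower still, then the complex I genes mt-Nd3 (117 ± 41.6) and mt-Nd4l (39.2 ± 13.7). Last was mt-Atp8, the other mitochondrial gene of the ATP synthase, at 3.93 ± 1.93 CPM per kb, from 184 counts over the whole series.

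**Figure D2:**
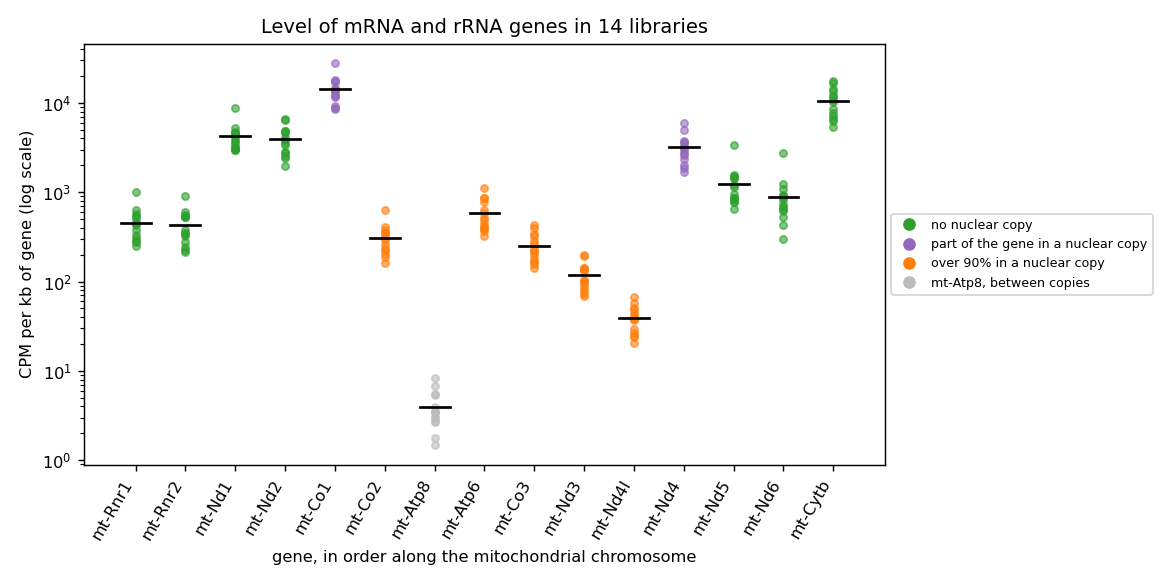
Level of the 13 mRNA and 2 rRNA genes as CPM per kb of gene on a log axis, in chromosome order. Points are the 14 libraries and bars their mean, with colours for the part of the gene that has a nuclear copy. The 5 genes with over 90% of their bases in a copy lie at means of 39.2 to 585, and the 5 mRNA genes outside the stretch of the copies at 896 to 10632. mt-Atp8, inside the stretch but without a matched copy among annotated transcripts, lies at 3.93.

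Part of the chromosome has a copy in the nuclear genome. On chromosome 1, 7 unprocessed pseudogenes in a row (chr1:24611535-24616197, minus strand) repeat chrMT:6390-11042. Over their aligned bases, 5 were identical to their mitochondrial genes and 2 had 1 mismatch, T3C in mt-Nd3 and A1066T in mt-Co1. The copies took 0.0438% to 0.135% of all counts in the 14 libraries. For 5 genes, mt-Co2, mt-Atp6, mt-Co3, mt-Nd3 and mt-Nd4l, over 90% of the bases are in a copy, and these genes had 39.2 to 585 CPM per kb. The 5 mRNA genes outside the stretch had 896 to 10632, while the rRNA genes, also outside it, lay within the range of the covered genes. The genes with part of their bases in a copy, mt-Nd4 (63.6%) and mt-Co1 (31.3%), had 3186 and 14273. mt-Atp8, the lowest mRNA gene, lies inside this stretch but had no matched copy among annotated transcripts at 50 aligned bases or more. Its end, chrMT:7927-7969, overlaps mt-Atp6 and so lies within Gm10925, and sequence outside annotated transcripts was not searched. The 5 tRNA genes of the stretch had 0 to 243 counts in all.

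Where the copy covered the whole gene, the counts were divided between both. In PBS tumours the copy held 35.4% ± 3.44 (SD, n = 4) of the combined counts for mt-Co2 and Gm28661, 45.8% ± 9.96 for mt-Atp6 and Gm10925, and 47.2% ± 7.86 for mt-Co3 and Gm28437. For mt-Nd3 and Gm28438 it held 52.2% ± 2.59, and for mt-Nd4l and its copy it held 55.9% ± 3.15. These shares overlapped between all groups. In contrast, Gm28439 held 1.10% ± 0.113 of the counts it shared with mt-Nd4, and Gm29216 held 0.325% ± 0.0419 of those it shared with mt-Co1. The share of Gm29216 was 0.274% to 0.376% in PBS and 0.384% to 0.461% in CTX140, without overlap, and 0.337% to 0.481% in CTX100. Adding each copy to its gene gave 86.5 to 1065 CPM per kb for the 5 covered genes, which remained below mt-Nd4 and mt-Co1. mt-Atp6 with its copy, at 1065, then lay above mt-Nd6, at 896, which is outside the stretch. Values of these 5 genes are therefore uncertain, since the labels do not state how reads with more than 1 match were counted.

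Group differences were tested for 26 of the 37 genes, which passed the filter on low counts: all 13 mRNA genes, both rRNA genes and 11 tRNA genes. The other 11 tRNA genes had 0 to 29 counts over all libraries. Among them mt-Tf (phenylalanine) and mt-Td (aspartate) had 0 counts, which allows a level of up to 0.0129 CPM over the counts of all libraries together. That bound holds for the libraries and not for the tRNA in the tumours. Here "called" means an adjusted p below 0.05 in edgeR's quasi-likelihood test, after Benjamini-Hochberg adjustment across the 15360 genes that passed the same filter.

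At the higher dose, 3 of the 26 genes were called, all higher than in PBS: the rRNA gene mt-Rnr2, the complex I gene mt-Nd6 and the proline tRNA gene mt-Tp. That is 11.5% of the genes, where 21.3% of all genes tested were called in this comparison, 11.1% of them higher and 10.1% lower as shares of all genes, so the count is near the background. Without adjustment, 8 of the 26 had p under 0.05. The log2 fold change was above 0 for 25 of the 26 genes, with a median of 0.53, against 0.02 for all genes tested. By strand, the 6 minus-strand genes had a median of 1.19 (range 0.93 to 1.45) and the 20 plus-strand genes a median of 0.30 (range -0.02 to 1.20). As the strand setting of the counting is unstated, the part of opposite-strand reads in these values was not tested. By kind, the median was 0.30 for the mRNA genes and 0.93 for the tRNA genes. The 26 genes share their libraries and 2 precursors, so these counts are no independent evidence.

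The calls moved with single libraries, as did the calls over all genes, 3268 in the main fit. Leaving out PBS 3, PBS 4 or CTX140 1 left 0 of the 26 genes called, with 1975, 1992 and 3067 called over all genes. Leaving out PBS 1 left 1 (mt-Nd6, with 3089 over all genes). Without PBS 2 or CTX140 4 the number rose to 9 or 7, with 3894 or 3244 over all genes. DESeq2 called 6 genes, adding mt-Rnr1, mt-Nd1 and mt-Nd5, with 4149 over all genes. A fit of the compared groups alone and a fit without the filter each called 0, with 1878 and 2792 over all genes. Since no label ties a library to a mouse of its own, p-values measure the spread between these libraries only.

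mt-Rnr2, the rRNA of the large mitochondrial ribosomal subunit, had 535, 890.0, 353 and 444 CPM in PBS 1 to 4. It had 517, 340.2, 381, 602 and 552 CPM in CTX100 1 to 5 and 1427, 840.3, 948, 856 and 844 CPM in CTX140 1 to 5. All CTX140 libraries lay above all CTX100 libraries, and PBS 2 lay within the CTX140 range. Against PBS the log2 fold change at the higher dose was 0.82 ± 0.25 (SE, edgeR adjusted p = 0.0314). mt-Rnr1, the rRNA of the small subunit, had 319, 539.7, 274 and 295 CPM in PBS and 963, 515, 601, 429.9 and 486 CPM in CTX140. Its log2 fold change was 0.75 ± 0.26 (SE, edgeR adjusted p = 0.0557), short of the threshold.

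mt-Nd6, the complex I subunit encoded on the minus strand, had 372, 425, 157 and 223 CPM in PBS 1 to 4. It had 455, 275, 317, 472 and 333.5 CPM in CTX100 1 to 5 and 1441, 560.1, 635, 356 and 485 CPM in CTX140 1 to 5. CTX140 1 stood apart from every other library, and CTX140 4 lay within the ranges of both other groups. The log2 fold change against PBS was 1.24 ± 0.38 (SE, edgeR adjusted p = 0.0342), and it was 0.79 without CTX140 1. mt-Tp had 17.7, 33.1, 11.4 and 8.62 CPM in PBS and 94.0, 43.1, 36.6, 23.3 and 31.9 CPM in CTX140. Here too CTX140 1 was highest by a wide margin, and PBS 2 lay among the other CTX140 libraries. The log2 fold change was 1.37 ± 0.43 (SE, edgeR adjusted p = 0.0373), and 0.94 without CTX140 1.

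**Figure D3:**
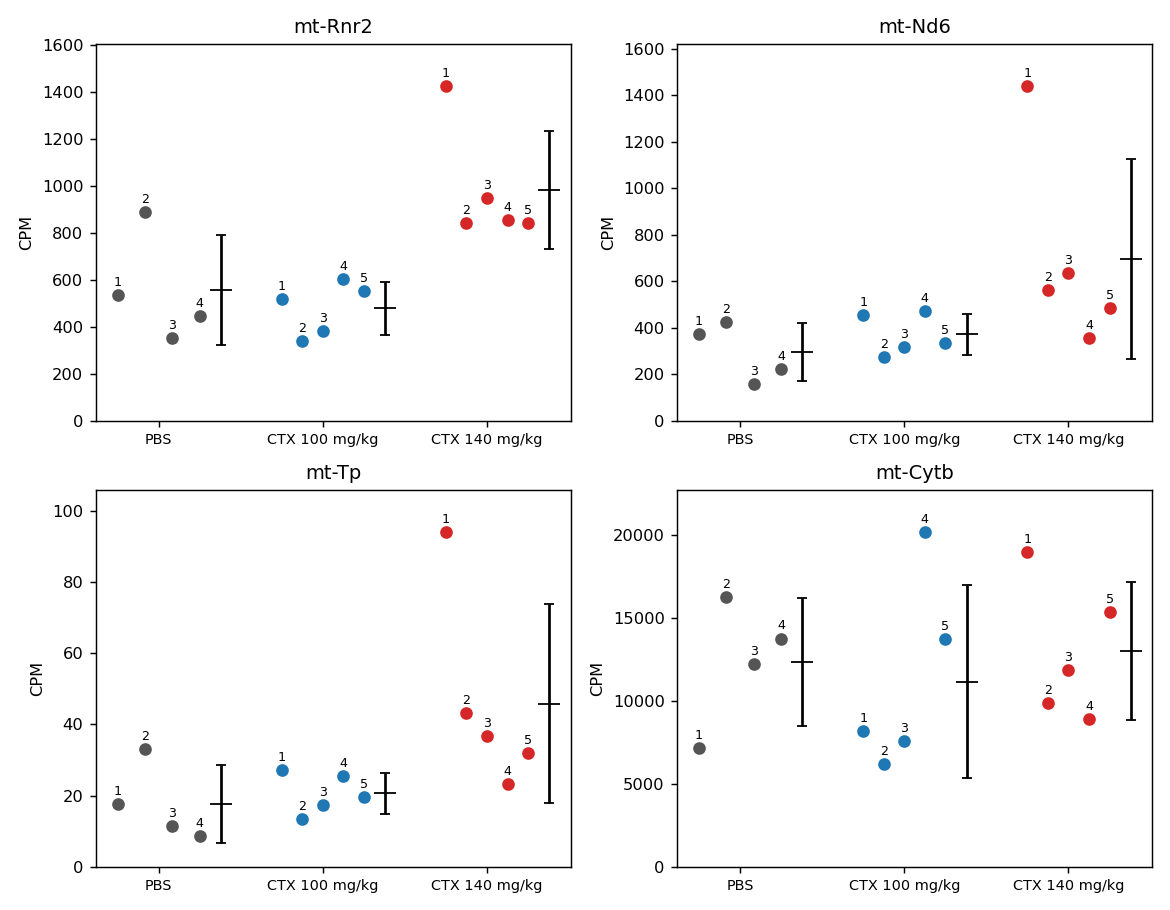
CPM of mt-Rnr2, mt-Nd6, mt-Tp and, for comparison, mt-Cytb in every library, with replicate numbers and the mean ± SD of each group. For the first 3 genes CTX140 1 stands above all other libraries, at 1427, 1441 and 94.0 CPM. For mt-Cytb the groups overlap throughout.

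The other minus-strand genes were tRNA genes with low counts, and none was called. mt-Tc had 8.44, 17.3, 1.19 and 1.65 CPM in PBS and 32.6, 21.6, 28.2, 5.94 and 9.15 CPM in CTX140, for a log2 fold change of 1.45 ± 0.70 (SE, edgeR adjusted p = 0.154). PBS libraries thus spread over more than the difference between the groups. For mt-Tn the value was 1.14 ± 0.79, for mt-Te 0.97 ± 0.51 and for mt-Ty 0.93 ± 0.57, with edgeR adjusted p-values of 0.32, 0.18 and 0.254. Among plus-strand tRNA genes, mt-Tl1 had 1.20 ± 0.56 (edgeR adjusted p = 0.136), mt-Tr (arginine) 0.74 ± 0.49, mt-Ts2 (serine) 0.31 ± 0.33, mt-Th (histidine) 0.21 ± 0.29, mt-Tl2 (leucine) 0.14 ± 0.27 and mt-Tw (tryptophan) -0.02 ± 0.88. mt-Tw was the only tested mitochondrial gene with a value below 0 in this comparison, and it turned positive without PBS 2, at 1.98, with the replicate block, at 0.93, and in both limma fits, at 1.47 and 2.33.

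No other mRNA gene passed the threshold. For complex I, mt-Nd5, the plus-strand neighbour of mt-Nd6, had 1564, 2619, 1174 and 1423 CPM in PBS, and 6099, 2802, 2839, 1728 and 2215 CPM in CTX140. Its log2 fold change was 0.89 ± 0.34 (SE, edgeR adjusted p = 0.0728). mt-Nd1 had 3032, 4470.3, 3117 and 2867 CPM in PBS and 8432, 4199, 4981, 3370.3 and 4397 CPM in CTX140. Its log2 fold change was 0.59 ± 0.23 (SE, edgeR adjusted p = 0.0807). For both genes CTX140 1 was the highest library and the remaining CTX140 libraries overlapped PBS. The log2 fold change was 0.64 ± 0.27 for mt-Nd3, 0.30 ± 0.32 for mt-Nd4, 0.24 ± 0.31 for mt-Nd4l and 0.23 ± 0.33 for mt-Nd2, with edgeR adjusted p-values of 0.105, 0.525, 0.608 and 0.649.

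The genes of complexes IV and III and of the ATP synthase were not called. mt-Co1 had 14140.5, 26360.3, 21468 and 18718 CPM in PBS, 19584, 13197, 13399.9, 27591 and 21428 CPM in CTX100, and 43167.5, 22793, 27041, 18011 and 21830.0 CPM in CTX140. Apart from CTX140 1 the groups overlapped, with a log2 fold change at the higher dose of 0.40 ± 0.27 (SE, edgeR adjusted p = 0.312). mt-Cytb had 7144, 16268, 12242 and 13765 CPM in PBS and 18976.5, 9896, 11857, 8896 and 15378 CPM in CTX140, and its log2 fold change was 0.07 ± 0.34 (SE, edgeR adjusted p = 0.897). Among complex IV and ATP synthase genes, it was 0.48 ± 0.31 for mt-Co2, 0.19 ± 0.33 for mt-Co3, 0.29 ± 0.36 for mt-Atp6 and 0.00 ± 0.43 for mt-Atp8. The matched nuclear copies were not called either: their values ran from 0.11 ± 0.32 for the copy of mt-Nd4l to 0.75 ± 0.29 for Gm29216 (edgeR adjusted p = 0.0753).

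**Figure D4:**
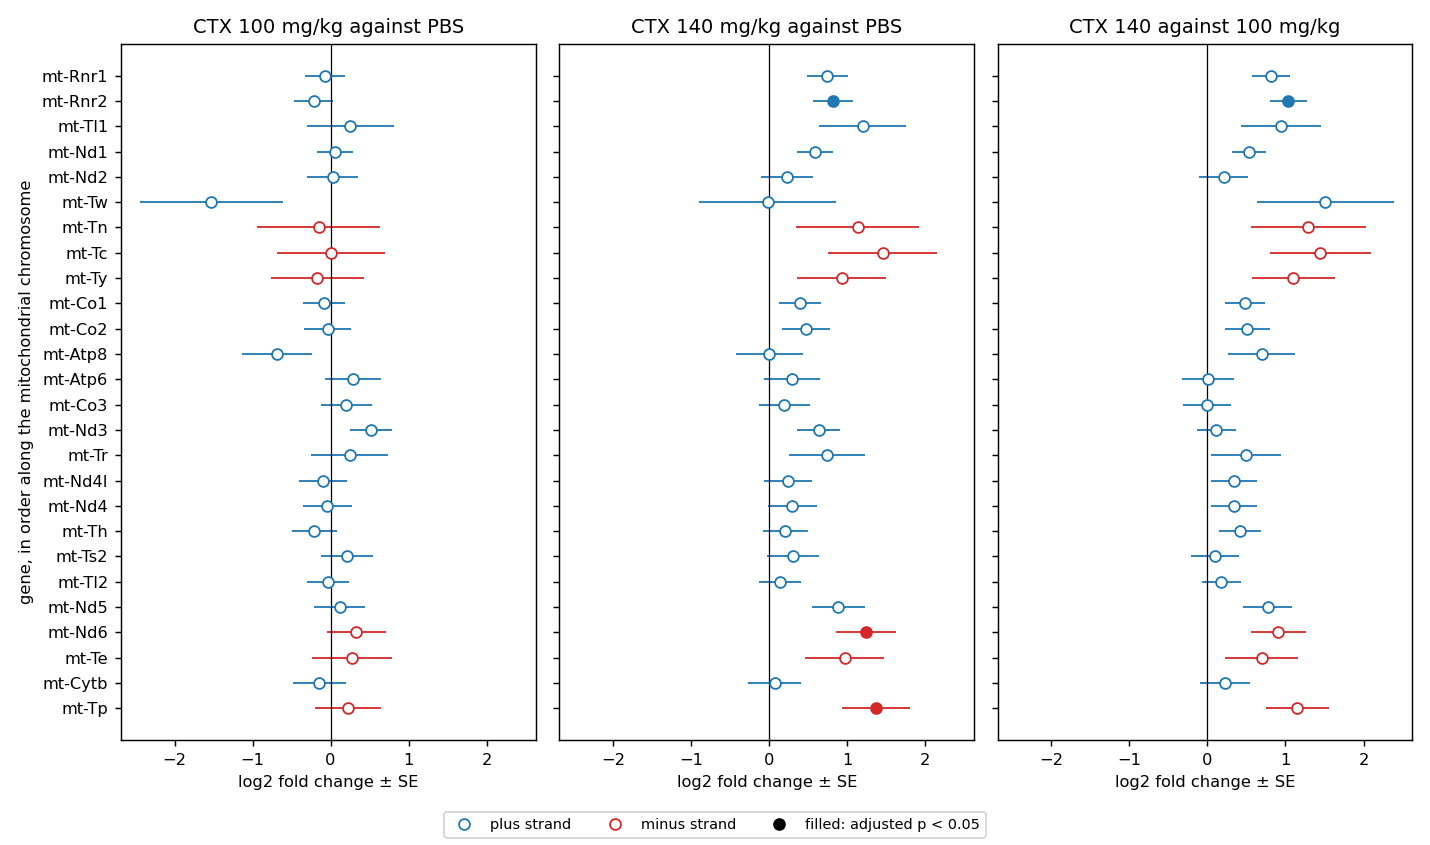
Log2 fold changes ± SE of the 26 tested mitochondrial genes, in chromosome order, for the 3 comparisons between pairs of groups. Blue marks plus-strand and red minus-strand genes, and filled points had an edgeR adjusted p under 0.05. In the middle panel mt-Rnr2 (0.82), mt-Nd6 (1.24) and mt-Tp (1.37) are filled and all 6 red points lie at 0.93 or above. In the right panel mt-Rnr2 (1.04) alone is filled, and in the left panel none is.

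Set against mt-Cytb of the same library, counts of mt-Nd6 were 5.21%, 2.61%, 1.29% and 1.62% in PBS 1 to 4. They were 5.57%, 4.46%, 4.17%, 2.34% and 2.43% in CTX100 1 to 5 and 7.59%, 5.66%, 5.36%, 4.00% and 3.16% in CTX140 1 to 5. The ratio therefore varied within each group as well as between groups, and PBS 1 lay among the treated libraries. mt-Nd5 counts were 21.9%, 16.1%, 9.59% and 10.3% of those of mt-Cytb in PBS, 25.4%, 22.7%, 20.1%, 13.0% and 11.3% in CTX100, and 32.1%, 28.3%, 23.9%, 19.4% and 14.4% in CTX140. PBS 3 and 4, CTX100 4 and 5, and CTX140 4 and 5 held the lowest values of both ratios. Both ratios divide by the same mt-Cytb counts, so they can move together through mt-Cytb alone. CTX100 4 was low in both, although its mt-Nd6 (472 CPM) and mt-Nd5 (2628 CPM) were the highest of CTX100. Its mt-Cytb, at 20183 CPM, was the highest of all libraries. The summed white adipocyte markers were 10.7, 8.27, 4.89 and 0.439 CPM in PBS 1 to 4, then 45.8, 41.3, 95.6, 18.4 and 16.6 in CTX100 1 to 5, and 344, 186, 133, 68.8 and 44.5 in CTX140 1 to 5. They too were lowest in libraries 3 and 4 of PBS, 4 and 5 of CTX100, and 4 and 5 of CTX140. Other marker lists shared part of this order. Endothelial and macrophage markers were also lowest in CTX100 4 and 5 and in CTX140 4 and 5, but in PBS 2 and PBS 4. T cell markers were lowest in PBS 3 and 4 and in CTX140 4 and 5, but in CTX100 2 and CTX100 3. Neutrophil markers were instead highest in CTX100 4 and 5 and in CTX140 4 and 5. The part of these cell types in the ratios was not tested. The ratios do not depend on the scaling of libraries, and no test was made on them.

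**Figure D5:**
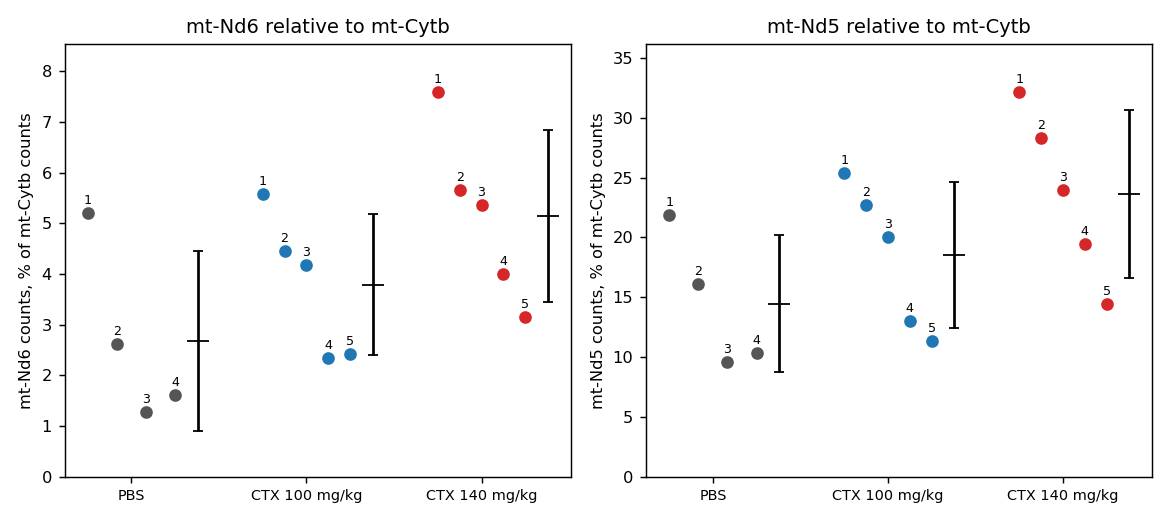
Counts of mt-Nd6 (left) and mt-Nd5 (right) as a percentage of mt-Cytb counts in the same library, with replicate numbers and the mean ± SD of each group. Within each group the libraries spread widely, from 1.29% to 5.21% for mt-Nd6 in PBS and from 3.16% to 7.59% in CTX140.

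The make-up of the mRNA pool was otherwise similar. As a share of the 13 mRNA genes, mt-Co1 held 43.4% ± 2.62 (SD, n = 4) in PBS, 43.3% ± 3.34 (SD, n = 5) in CTX100 and 45.1% ± 3.25 (SD, n = 5) in CTX140. mt-Cytb held 26.2% ± 2.93, 24.1% ± 3.65 and 22.4% ± 3.20. mt-Nd5 held 3.69% ± 1.10, 4.30% ± 0.879 and 5.12% ± 1.00, and mt-Nd6 held 0.669% ± 0.360, 0.877% ± 0.206 and 1.12% ± 0.259, with overlap between all groups. mt-Co3 was the exception in its ranges: it held 0.424% to 0.522% in CTX100 and 0.321% to 0.364% in CTX140, without overlap, and 0.275% to 0.545% in PBS. It was picked from 13 genes over all pairs of groups, and how often ranges part by chance was not tested. mt-Co3 is among the genes with a full nuclear copy.

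At the lower dose no mitochondrial gene was called against PBS: 0 of 26 by edgeR, where 1.60% of all genes tested were called. DESeq2 also called 0, and none of the 26 had an unadjusted p under 0.05 by edgeR. Values lay on both sides of 0, with 13 of 26 above it and a median of -0.01, equal to that of all genes. mt-Nd3 had the smallest adjusted p, with 29.4, 32.0, 34.1 and 25.4 CPM in PBS and 35.7, 27.4, 36.2, 67.9 and 49.5 CPM in CTX100. Its log2 fold change was 0.52 ± 0.27 (SE, edgeR adjusted p = 0.329), and CTX100 4 and 5 lay farthest above the PBS range. mt-Rnr2 had -0.22 ± 0.25, mt-Nd6 0.33 ± 0.37 and mt-Tp 0.22 ± 0.43.

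Between the doses, mt-Rnr2 was called higher at 140 than at 100 mg/kg, with a log2 fold change of 1.04 ± 0.24 (SE, edgeR adjusted p = 0.0449). It was 1 of 26 genes, where 1.25% of all genes tested were called and 0.775% were called higher. It was called in 2 of the 10 fits that left out a library, those without CTX140 4 or 5, with log2 fold changes of 0.87 to 1.13 over the 10 fits. Calls over all genes moved as well, from 192 in the main fit to 528 and 1007 in those 2. They were 1, 0, 0, 0 and 162 without CTX100 1 to 5, and 52, 1 and 0 without CTX140 1, 2 and 3. For mt-Rnr1 the value was 0.81 ± 0.25 (edgeR adjusted p = 0.0849), for mt-Tp 1.15 ± 0.40 (edgeR adjusted p = 0.119) and for mt-Nd6 0.91 ± 0.35 (edgeR adjusted p = 0.154). The minus-strand genes had a median of 1.13 and the plus-strand genes 0.45, against 0.03 for all genes. This comparison shares the CTX140 libraries, CTX140 1 among them, with the comparison against PBS. For the mean of both doses against PBS, 0 of 26 were called by edgeR and by DESeq2, where 13.2% of all genes were called, 6.60% higher and 6.60% lower, and 2 had an unadjusted p under 0.05 by edgeR.

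Nuclear genes that maintain, express and partner the mitochondrial genome were followed in lists. Elac2, the endonuclease that cuts the 3′ ends of mitochondrial tRNAs out of the precursor, was higher at both doses: 13.0 to 18.7 CPM in the PBS group, 21.9 to 24.9 with 100 mg/kg and 22.3 to 27.4 with 140 mg/kg. The groups given CTX did not overlap with PBS. The log2 fold change was 0.65 ± 0.13 (SE, edgeR adjusted p = 0.0246) at the lower dose and 0.75 ± 0.13 (SE, edgeR adjusted p = 0.00127) at the higher. The first call was lost when any of PBS 3, PBS 4 or CTX100 2, 3, 4 or 5 was left out, and the second held in all 9 such fits. In the fits that lost the first call, 17 to 78 genes were called over all genes, against 245 in the main fit. Elac2 was the only gene of these lists called by edgeR at the lower dose. Of the 17 tested genes of mitochondrial RNA processing and stability, 2 were called higher at the higher dose, Elac2 and the exoribonuclease Rexo2, at 0.40 ± 0.13 (SE, edgeR adjusted p = 0.0349), and 0 lower, which is 11.8% against 21.3% of all genes tested. The Rexo2 call was lost without PBS 1, PBS 4, CTX140 2 or CTX140 3.

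The genes that copy, transcribe and translate the mitochondrial chromosome were followed at the higher dose, beside the background of 21.3%. The share called was 7.69% for replication and nucleoid, 0% for transcription and 5.88% for rRNA and tRNA modification. It was 17.6% for aminoacyl-tRNA synthetases and 8.33% for translation factors. With lists this short, such shares are no result about their members. Of 13 replication and nucleoid genes 1 was higher, the topoisomerase Top1mt, at 0.59 ± 0.16 (SE, edgeR adjusted p = 0.0172), a call lost without PBS 4. Of 8 transcription genes, which include the RNA polymerase Polrmt, 0 were called by edgeR or DESeq2, and 0 had an unadjusted p under 0.05 by edgeR. Of 17 genes that modify mitochondrial rRNA or tRNA 1 was higher, the pseudouridine synthase Pus1, at 0.43 ± 0.12 (SE, edgeR adjusted p = 0.0222), lost without PBS 3 or PBS 4. Of 17 aminoacyl-tRNA synthetases 2 were higher, Cars2 (0.42 ± 0.13) and Tars2 (0.43 ± 0.13), and 1 was lower, Iars2 (-0.43 ± 0.13), with edgeR adjusted p-values of 0.0255, 0.028 and 0.0241. Each of these 3 calls was lost without PBS 3 or CTX140 3, those of Cars2 and Tars2 also without PBS 4, that of Tars2 also without CTX140 1, and that of Iars2 also without CTX140 2. Of 12 translation factors 1 was lower, the inner-membrane insertase Oxa1l, at -0.31 ± 0.09 (SE, edgeR adjusted p = 0.0208), lost without PBS 3 or CTX140 3.

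Of 7 tested regulators of mitochondrial biogenesis 1 was lower, the transcription factor subunit Gabpa, with 54.3 to 88.3 CPM in the PBS group, 50.4 to 59.2 with 100 mg/kg and 40.4 to 50.6 with 140 mg/kg. Its log2 fold change at the higher dose was -0.63 ± 0.13 (SE, edgeR adjusted p = 0.00328) and held in all 9 fits without a library. Of 7 genes of mitochondrial turnover, the ubiquitin ligase Mul1 was higher (0.36 ± 0.12, edgeR adjusted p = 0.0376) and the mitophagy receptor Bnip3l was lower (-0.53 ± 0.13, edgeR adjusted p = 0.00954). The Mul1 call was lost in 5 of 9 fits without a library, those without PBS 3, PBS 4 or CTX140 2, 3 or 4, and the Bnip3l call in 0 of 9. These lists are short, and their shares of 14.3% and 28.6% called stand beside 21.3% of all genes tested.

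The nuclear subunits that join the mitochondrial ones in the respiratory complexes and the ATP synthase were 75 genes. At the lower dose 0 were called by edgeR (DESeq2 called 2, and 14 had an unadjusted p under 0.05 by edgeR), with a median log2 fold change of 0.20, though 10 were called without PBS 2. At the higher dose 12 were higher and 1 was lower, which is 17.3% against the background of 21.3%, with a median of 0.32 against 0.02 for all genes. Complex I had 7 of 36 higher, led by Ndufa1 (0.72 ± 0.17, edgeR adjusted p = 0.00777) and Ndufs6 (0.71 ± 0.17, edgeR adjusted p = 0.00852), and 0 lower. Complex III had 3 of 9 higher, led by Uqcrq (0.88 ± 0.23, edgeR adjusted p = 0.0137) and Cyc1 (0.44 ± 0.12, edgeR adjusted p = 0.0158). Complex IV had 1 of 11 higher, Cox6a1 (0.46 ± 0.15, edgeR adjusted p = 0.0343), and the ATP synthase 1 of 15, Atp5o (0.60 ± 0.16, edgeR adjusted p = 0.0171). Complex II, which has no mitochondrial subunit, had 1 of 4 lower, Sdhc (-0.30 ± 0.09, edgeR adjusted p = 0.0314). The calls of Ndufa1 and Ndufs6 held in all 9 fits without a library. The call of Uqcrq was lost without PBS 3, that of Cyc1 without PBS 4, and that of Atp5o without either. The call of Cox6a1 was lost without PBS 1, 3 or 4 or CTX140 2 or 3, and that of Sdhc without PBS 1 or 3 or CTX140 1, 3 or 4.

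That number of 13 also moved with single libraries. Leaving out PBS 2 raised it to 37, whereas leaving out PBS 1 or CTX140 2 lowered it to 7. It was 5 without CTX140 3, 4 without PBS 4 and 3 without PBS 3. Calls over all genes, 3268 in the main fit, were 3894 without PBS 2, 3089 without PBS 1 and 2551 without CTX140 2. They were 2543 without CTX140 3, 1992 without PBS 4 and 1975 without PBS 3. Of 77 tested proteins of the mitochondrial ribosome, 11 were higher and 1 was lower at the higher dose, 15.6% against the same background. Mrps21 (0.71 ± 0.18, edgeR adjusted p = 0.0104) and Mrps7 (0.56 ± 0.14, edgeR adjusted p = 0.013) led those that rose, and Mrps2 was lower (-0.33 ± 0.10, edgeR adjusted p = 0.0325). The first 2 calls held in all 9 fits without a library, and that of Mrps2 was lost without PBS 1, 3 or 4 or CTX140 1, 3 or 4. Between the doses, 0 of the 75 subunits and 0 of the 77 ribosomal proteins were called by edgeR, where 1.25% of all genes were called. An unadjusted p under 0.05 by edgeR was found for 3 of the subunits and 3 of the ribosomal proteins, and DESeq2 called 1 of each.

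Other fits also ended calls of these nuclear genes at the higher dose. Without the filter on low counts, the calls of Top1mt, Rexo2, Pus1, Oxa1l, Cars2, Tars2, Mul1, Sdhc, Cox6a1 and Mrps2 were lost. With only the compared groups fitted, the same calls and those of Iars2, Cyc1 and Atp5o were lost. With the replicate number as a block, those of Pus1, Cars2, Mul1, Sdhc, Cox6a1 and Mrps2 were lost. Other scaling ended the call of Mul1, with library totals alone, and that of Sdhc, with upper quartile factors.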

How the data were processed

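Bulk tumour RNA was sequenced in 14 libraries: 4 of PBS, 5 of CTX100 and 5 of CTX140, grouped by sample titles. The authors deposited a table of counts and of FPKM values per gene (counts per kb of gene, scaled to library size). Per the submitters' processing notes, mm10 and DESeq2 were used. For the aligner, the counter, its strand setting and the RNA selection, the entry is: not given in the sources used here. Libraries held 14423875 to 19282726 counts, and of 26 pairs of libraries of the same group none agreed within sampling noise.

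Deposited counts were tested with edgeR 4.0.16 (R 4.3.3): quasi-likelihood test, TMM factors, filterByExpr by group, all 14 libraries in 1 fit, Benjamini-Hochberg adjustment over 15360 genes. The test was checked on simulated data. Alternatives used DESeq2 1.42.0, limma 3.58.1 on log2 of the deposited FPKM + 1 or + 0.1, other scaling factors and filters, and each library left out in turn. Nuclear copies were found with BLAST 2.17.0 between GENCODE M21 transcripts, at 98% identity or more. Shares of counts have no test. Ranges without overlap are described only, and how often they occur over all genes was not counted. All 37 mitochondrial genes are accounted for. From each list of nuclear genes, at most 2 called members per direction with the smallest p are named for each dose, and at most 6 nuclear copies by count. The rule for the members used no expression value, but the members and lists were chosen with earlier results of these data known.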

Additional observations from a re-analysis of the deposited data

Results flagged for a closer look

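A library was singled out where its gap to the nearest other library of its group took a larger part of the group's range than Dixon's 95% critical value. This was so in 10 of 90 tests over 30 measures, where chance gives about 1 in 20. The measures share libraries, so the 10 are not independent.

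Of these, 5 were CTX140 1. It had 1427 CPM of mt-Rnr2 (840.3 to 948 in the other 4 CTX140 libraries), 6099 CPM of mt-Nd5 (1728 to 2839), 1441 CPM of mt-Nd6 (356 to 635) and 94.0 CPM of mt-Tp (23.3 to 43.1). Its rRNA genes took 0.241% of all counts (0.128% to 0.154%). Another 4 were PBS 2, with 539.7 CPM of mt-Rnr1 (274 to 319 in the other 3 PBS libraries), 4470.3 CPM of mt-Nd1 (2867 to 3117), 6.15 CPM of mt-Tw (0 to 1.02) and 1.71 CPM of mt-Atp8 (0.603 to 0.714). The last was CTX100 4, with 2.34 CPM of mt-Tr (0.299 to 0.784 in the other 4 CTX100 libraries).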

How the results depend on the processing

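The number of mitochondrial genes called at CTX140 against PBS, 3, became 6 with DESeq2, 0 without the filter and 0 with only the compared groups fitted, and spanned 0 to 9 when a library was left out. For CTX140 against CTX100, 1 became 3 with DESeq2 and 0 with either limma fit or without the filter, and 0 to 1 without a library. For both doses against PBS it was 0 to 2 without a library, and for CTX100 against PBS 0 in every fit. With the replicate number as a block, 4 genes were called at CTX140 against PBS and 0 at CTX140 against CTX100. Of 13 same-numbered pairs of libraries, 6 had deviations correlated over 0.1 (range -0.19 to 0.43), and 4 of 14 libraries correlated best with their own number, so the numbers were not taken as a pairing. The number of nuclear subunits called at CTX140, 13, became 20 with library totals alone, 8 without the filter, 6 with only the compared groups and 6 with the block. The cause of these shifts was not tested. For gene calls, adding the copies' reads, and all alternatives for nuclear genes, were chosen after seeing the data. Of 1656 fold changes of mitochondrial genes under alternatives, 30 lost a call and 18 gained one. Among values uncalled in the main fit 97 changed sign, and 14 of these 97 also moved by more than their SE. Moves of uncalled values that kept their sign were not counted. The difference in mitochondrial share moved from its value by less than the pooled SD between libraries in all 43 alternatives, with -0.776 to 0.192, 0.352 to 1.77 and 0.543 to 2.08 points without a library for CTX100 minus PBS, CTX140 minus PBS and CTX140 minus CTX100. The last difference was itself beyond its pooled SD of 1.91 without CTX100 4 (2.08) or CTX140 4 (1.96). Low counts limit the tRNA genes: 11 were too low to test. The part of depth, gene length or RNA selection in these low counts was not tested.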

Other observations

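Neighbouring plus-strand genes were not in a constant ratio within groups. Counts of mt-Nd1 were 122%, 112%, 85.1% and 56.8% of those of mt-Nd2 in PBS 1 to 4. They were 131%, 144%, 106%, 65.5% and 71.9% in CTX100 1 to 5, and 122%, 119%, 118%, 118% and 91.9% in CTX140 1 to 5. The lowest values were those of PBS 4 and CTX100 4, and the groups overlapped. Counts of mt-Rnr2 were 168%, 165%, 129% and 150.4% of those of mt-Rnr1 in PBS, 145%, 144%, 146%, 138% and 134% in CTX100, and 148%, 163%, 158%, 199% and 174% in CTX140. All CTX140 libraries lay above all CTX100 libraries in this ratio, and PBS spanned both. No test was made on these ratios.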
